A study of Mus musculus with 4 samples.

Results

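Txnip and its relatives Arrdc1, Arrdc2, Arrdc3 and Arrdc4 were followed in mouse primary hepatocytes exposed to fructose with and without the transcription factor ChREBP. The 5 genes were chosen by name, as the genes whose probe set carried 1 of these symbols on the array's platform annotation, and each had 1 such probe set among the 22180 genes with a value. Hepatocytes came from male mice of 2 months that lacked Chrebp (KO, gene Mlxipl) or were wild type (WT), and were held for 16 h without serum, in medium that held 25 mM fructose or none (control). The groups KO fructose, KO control, WT fructose and WT control were measured on 1 array each, so there was no spread between replicates, no difference could be tested, and every value is only as precise as a lone array allows. The labels do not state which part of Chrebp was deleted, in which cells, how many mice gave the cells, or what sugar the control medium held. Values are log2 levels from robust multi-array averaging (RMA) made by the authors, and a level at or under 4.764, the background set from olfactory receptor genes, counts as not detected.

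The alpha-arrestins are adaptor proteins that carry PPxY motifs, by which they recruit ubiquitin ligases of the NEDD4 family to membrane proteins and so direct them into endocytosis. Txnip, the best known member, also binds reduced thioredoxin and restrains glucose uptake by removing glucose transporters from the cell surface. In liver, Txnip is a classical target of ChREBP, which partners with MLX and binds carbohydrate response elements, made of a pair of E-box-like sites spaced apart by a few bases.

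The promoter sequences of Txnip and Arrdc4, the members with the widest differences, are shown with that of Arrdc2, whose fructose difference was alike in both genotypes. Each is the 250 bases before the annotated start, read 5′ to 3′ on the gene's strand from RefSeq on GRCm38.p6: Txnip chr3:96557707-96557956 (+ strand), Arrdc4 chr7:68749239-68749488 (- strand) and Arrdc2 chr8:70839721-70839970 (- strand). Capitals mark every match on either strand to the paired E-box form (CACGNG, 5 bases of any kind and CACGNG again), the E-box CACGTG, the CCAAT box (CCAAT, or ATTGG on the opposite strand) and the forkhead core GTAAACA.
Txnip: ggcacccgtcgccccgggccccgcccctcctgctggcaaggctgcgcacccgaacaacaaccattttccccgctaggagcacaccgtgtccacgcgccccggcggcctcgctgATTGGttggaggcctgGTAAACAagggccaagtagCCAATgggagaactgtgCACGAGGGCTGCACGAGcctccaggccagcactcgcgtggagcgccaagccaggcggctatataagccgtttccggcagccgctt
Arrdc4: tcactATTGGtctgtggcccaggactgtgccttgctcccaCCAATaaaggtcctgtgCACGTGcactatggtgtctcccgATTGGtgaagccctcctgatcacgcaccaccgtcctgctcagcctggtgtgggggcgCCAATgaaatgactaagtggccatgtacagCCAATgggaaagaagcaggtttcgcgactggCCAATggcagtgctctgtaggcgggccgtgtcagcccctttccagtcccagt
Arrdc2: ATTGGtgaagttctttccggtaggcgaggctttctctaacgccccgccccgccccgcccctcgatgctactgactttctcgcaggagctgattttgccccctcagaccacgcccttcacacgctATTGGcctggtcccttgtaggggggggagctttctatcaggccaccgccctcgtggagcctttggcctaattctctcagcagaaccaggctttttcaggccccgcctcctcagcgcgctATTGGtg

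Txnip held 1 match to the paired form, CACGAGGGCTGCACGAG, from position -85 to -69, where -1 is the base before the annotated start. Among 32851 windows of the same length, 15 (0.0457%) held this form. It was spelled from half-sites of the E-box type after the Txnip sequence had been read, so its presence there is no finding. The Txnip window also held CCAAT boxes at -137 and -102 and a forkhead core at -121, which lie in 33.8% and 3.17% of all windows. Arrdc4 held an E-box CACGTG from -193 to -188, a motif of 6.02% of windows, and 6 CCAAT boxes. Arrdc2 held 3 CCAAT boxes and no match to the other motifs. Of the 3 annotated Arrdc3 starts, the first and the second, whose windows overlap, shared a CCAAT box, and neither the third nor the Arrdc1 window held any of the motifs. None of the matches overlapped another. A match describes letters in the window and was not tied to binding in these cells.

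**Figure D1:**
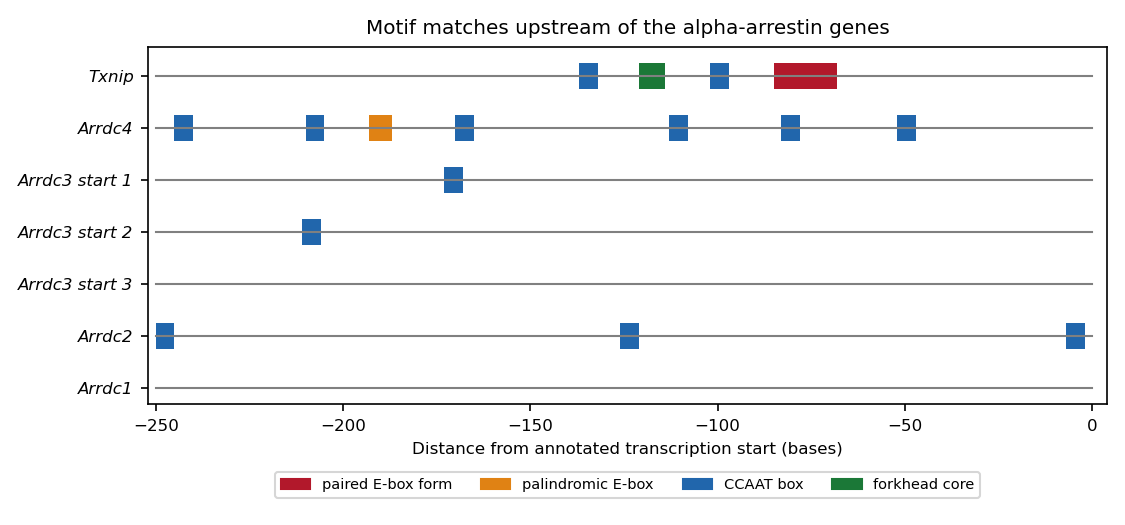
Positions of motif matches in the 250 bases before each annotated start of the 5 genes (x axis, bases from the start; 1 row per start, 3 for Arrdc3). The paired E-box form appears in the Txnip row at -85 to -69, and the Arrdc4 row has the most CCAAT boxes, 6.

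Between 10368 and 10447 genes lay above the background on each array. The targeted gene Mlxipl stood at log2 levels of 7.37 in KO fructose, 7.42 in KO control, 8.43 in WT fructose and 8.08 in WT control. It was lower in KO but well above background there, and its probe set may lie outside the deleted part, so it is a limited check of the genotype. All 8 hepatocyte markers, among them Alb at 12.6 to 12.7, were detected on every array. Their log2 differences with fructose ran from -0.50 to 2.01 in KO and from -0.75 to 2.22 in WT. Of 10 macrophage markers 8 were detected on at least 1 array, and of 8 endothelial markers 5, with Stab2, Clec4g and Tek below background throughout.

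Txnip was the member that differed most. Its log2 levels were 8.30 in KO fructose and 7.04 in KO control, against 11.48 in WT fructose and 7.60 in WT control. The WT fructose array stood far above the other three, and the KO control array was the lowest. With fructose Txnip was higher by a log2 difference of 1.26 in KO (2.40-fold) and of 3.88 in WT (14.7-fold). In WT only 5 of 10814 detected genes, Txnip among them, were higher by as much, and in KO 101 of 10752 were. The fructose difference in KO minus that in WT was -2.61 on the log2 scale. In cells of bulk culture, fewer cells of a type and less RNA per cell cannot be told apart.

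Between genotypes, Txnip was lower in KO in both media. The log2 difference of KO minus WT was -3.18 in fructose medium, 9.05-fold lower, and -0.56 in control medium, 1.48-fold lower. In fructose medium 5 of 10688 detected genes, counting Txnip, were as far below WT, and in control medium 134 of 10720. The fructose comparison in WT and the genotype comparison in fructose medium share the WT fructose array, so they are not independent readings. The KO fructose array exceeded the WT control array by 0.70, so in KO cells with fructose the level was above that of WT cells without it.

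Arrdc4, which like Txnip lowers glucose uptake in mammalian cells, ran parallel to Txnip at a smaller size. Its log2 levels were 7.82 in KO fructose and 7.13 in KO control, against 9.72 in WT fructose and 7.61 in WT control. The order of the arrays was the same as for Txnip. The difference with fructose was 0.70 in KO (1.62-fold), which is under 2-fold, and 2.11 in WT (4.31-fold). KO minus WT was -1.90 in fructose medium (3.73-fold lower) and -0.49 in control medium (1.40-fold lower). The difference of effects was -1.41. In WT 50 of 10814 detected genes were higher by as much as Arrdc4, and in fructose medium 16 of 10688 were as far below WT, each count including Arrdc4.

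**Figure D2:**
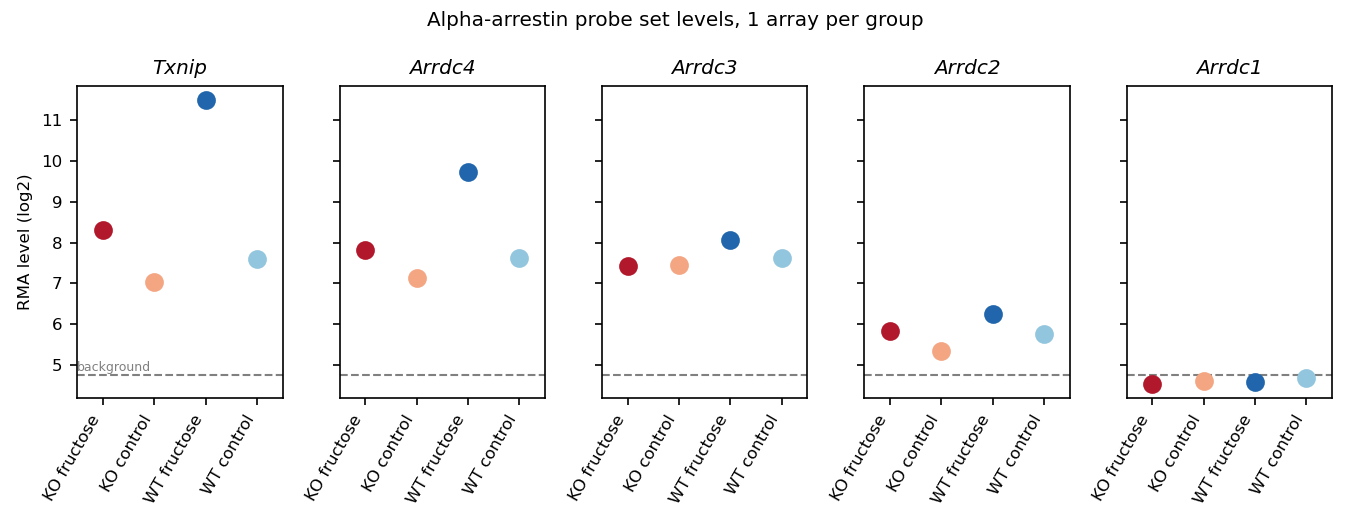
RMA levels (log2, y axis) of the 5 genes on the 4 arrays, 1 point per array, with the background level of 4.764 as a dashed line; levels of different probe sets are not comparable with each other. Txnip and Arrdc4 are highest on the WT fructose array (11.48 and 9.72), Arrdc2 and Arrdc3 vary by less than 1 log2 unit, and Arrdc1 lies under the line on all 4 arrays.

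The log2 difference of Arrdc4 came to 55.2% of that of Txnip for fructose in KO and 54.4% for fructose in WT, comparisons that use separate arrays. In fructose medium the genotype difference of Arrdc4 was 59.8% of that of Txnip, and in control medium 86.5%. Probe sets can compress a change to different degrees, so these shares describe the readouts of both probe sets and not transcript numbers. Expressed within each gene, the fructose difference in KO was 32.5% of that in WT for Txnip and 33.0% for Arrdc4, on the log2 scale.

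The same share was taken for other genes known to respond to ChREBP. Of 24 such genes on the list, 12 were at least 2-fold higher with fructose in WT, and 11 of these were detected in KO; G6pc, glucose-6-phosphatase, was below background on both KO arrays and has no share. The 11 shares ran from -94.7% to 33.0% with a median of 16.3%. Of the 11, 10 lay below Txnip; Gckr, the glucokinase regulator, was at 33.0%. Angptl8, a secreted inhibitor of lipoprotein lipase, had 32.3%, Rgs16, a regulator of G-protein signalling, 27.0%, Fgf21, a liver hormone, 18.9%, and Klf10, a zinc-finger factor, 18.7%. Slc2a2, the hepatic glucose transporter, gave the lowest share, since its level was lower with fructose in KO and higher in WT. Of all 335 genes at least 2-fold higher in WT, 323 were detected in KO, and their median share was 68.4% (quartiles 46.5% and 84.2%), with 47 genes below Txnip and 48 below Arrdc4. The WT value both chose these genes and formed the divisor, so the shares are a description.

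Arrdc3, which in mice and human cells binds beta-adrenergic receptors and is linked to body weight, had log2 levels of 7.41 in KO fructose and 7.45 in KO control, against 8.06 in WT fructose and 7.61 in WT control. The WT fructose array was the highest and the others lay close together. With fructose it differed by -0.037 in KO and by 0.45 in WT (1.37-fold higher), and KO minus WT was -0.65 in fructose medium (1.57-fold lower) and -0.16 in control medium. In fructose medium 2.25% of detected genes were as far below WT as Arrdc3.

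Arrdc2, a less studied member, had log2 levels of 5.84 in KO fructose and 5.36 in KO control, against 6.24 in WT fructose and 5.78 in WT control. Fructose arrays were above control arrays and KO arrays below WT arrays by similar steps. The difference with fructose was 0.48 in KO (1.40-fold) and 0.47 in WT (1.38-fold), and KO minus WT was -0.41 in fructose medium and -0.42 in control medium. The difference of effects was 0.015 and turned to -0.047 after repeated quantile normalization and to -0.011 after loess correction. With fructose in KO 9.18% of detected genes were higher by as much, and in WT 13.6%.

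Arrdc1, which in human cells recruits the ESCRT machinery to bud microvesicles from the plasma membrane, had log2 levels of 4.55 in KO fructose and 4.63 in KO control, against 4.59 in WT fructose and 4.69 in WT control. All 4 values lay under the background, so no fold is given. Arrdc5, the remaining alpha-arrestin of the mouse, ran from 3.38 to 3.59 and was likewise not detected.

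Counted by size, 1 of the 5 genes (Txnip) was at least 2-fold higher with fructose in KO, where 1.68% of detected genes were, and 2 (Txnip and Arrdc4) in WT, where 3.1% were. None of the 5 was 2-fold lower with fructose, against 1.18% of detected genes in KO and 3.01% in WT. In fructose medium 2 of the 5 were at least 2-fold lower in KO than in WT, against 0.739% of detected genes, and 0 were higher, against 0.543%. In control medium 0 of the 5 reached 2-fold, against 0.0373% of detected genes higher and 0.196% lower in KO. For the difference of effects 2 were at least 2-fold lower, against 0.588% of detected genes, and 0 higher, against 0.443%. The 4 detected members were above background on all 4 arrays and Arrdc1 on none. The 4 detected members had a median log2 difference with fructose of 0.59 in KO and 1.29 in WT, where the medians of all detected genes were -0.0041 and -0.026. KO minus WT had a median of -1.27 in fructose medium and -0.45 in control medium over these 4 genes, with medians of 0.015 and -0.0077 for all detected genes. All 4 were below WT in both media, on 1 array per group, but not all by much. Arrdc3 in control medium was at -0.16, and 18.9% of detected genes were as far below WT there.

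**Figure D3:**
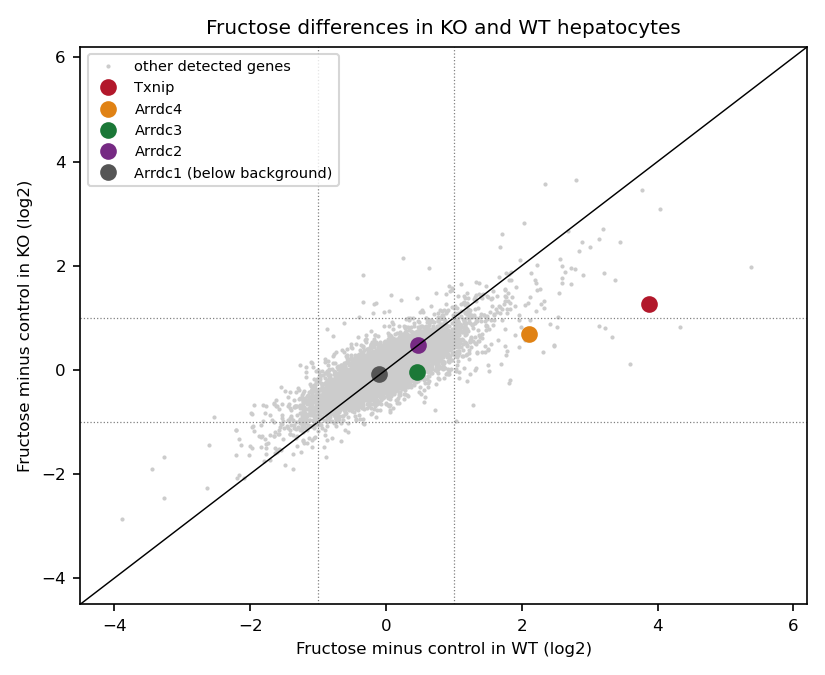
Log2 difference of fructose minus control in WT (x axis) and in KO (y axis) for every gene detected in either comparison (grey) and for the 5 genes (coloured); the solid line marks equal differences and dotted lines 2-fold. Txnip (3.88 in WT, 1.26 in KO) and Arrdc4 (2.11 in WT, 0.70 in KO) lie far below the line of equal differences, and Arrdc2 lies on it.

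Most detected macrophage and endothelial markers were lower in KO than in WT, on 1 array per group. The medians of all detected genes were 0.015 in fructose medium and -0.0077 in control medium. In KO, 7 of the 8 macrophage markers detected in fructose medium were below WT, with a median of -0.57, and 6 of the 7 detected in control medium, with a median of -0.36, although the summed linear level was 2747 in KO fructose and 2603 in KO control, against 2316 in WT fructose and 2680 in WT control, most of it from Cd68. C1qc and Vsig4, which also mark Kupffer cells, were below background on all arrays. All 5 detected endothelial markers were below WT in both media, in fructose medium by differences from -0.62 to -0.020. Their medians were -0.35 in fructose and -0.37 in control medium. Their summed linear level was 552 in KO fructose and 573 in KO control, against 718 in WT fructose and 797 in WT control. These differences in control medium were of the same order as those of Txnip, Arrdc4 and Arrdc2 there, and their part in the alpha-arrestin values was not tested. In fructose medium KO minus WT of the detected macrophage markers ran from -1.01 (Timd4) to 0.44 (Cd68). The other panels held few detected markers. Of 2 stellate or fibroblast markers, both were below WT, with medians of -0.15 in fructose and -0.26 in control medium. Of 2 lymphocyte markers, 1 was below WT in fructose medium and 2 in control medium. The only detected cholangiocyte marker was at -0.086 in fructose and -0.44 in control medium.

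The genes whose 4 levels, each centred on its own mean, lay nearest to those of Txnip were Fgf21 (Euclidean distance 0.46 log2 units), Prss8, an epithelial serine protease (0.58), Klf10 (0.62), Slc25a47, a mitochondrial carrier of liver (0.65), and Rgs16 (0.68), out of 10214 other detected genes, predicted genes and small RNAs left out, over 4 arrays. Fgf21 had log2 levels of 5.78 in KO fructose and 4.96 in KO control, against 9.28 in WT fructose and 4.95 in WT control. Its control levels lay close to the background of 4.764 and differed by 0.0080 for KO minus WT, where Txnip differed by -0.56. Slc25a47 held the largest fructose difference in KO of these genes, 1.73, and Rgs16 the largest genotype difference in control medium, -1.05. Arrdc4 came 12th in order of distance to Txnip, at 1.48, and Arrdc2 and Arrdc3 came 663rd and 994th.

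The genes nearest to Arrdc4 were Slc17a4, an organic anion transporter (0.298), Ifi30, a lysosomal thiol reductase (0.305), Pdhb, a subunit of pyruvate dehydrogenase (0.307), Scnn1a, a subunit of the epithelial sodium channel (0.334), and Angptl8 (0.360). Their log2 differences with fructose ran from 0.34 to 0.88 in KO and from 1.90 to 2.53 in WT. In fructose medium their KO minus WT differences ran from -2.24 to -1.55, and in control medium from -0.53 to -0.11. A distance over 4 arrays is a description of these arrays.

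**Figure D4:**
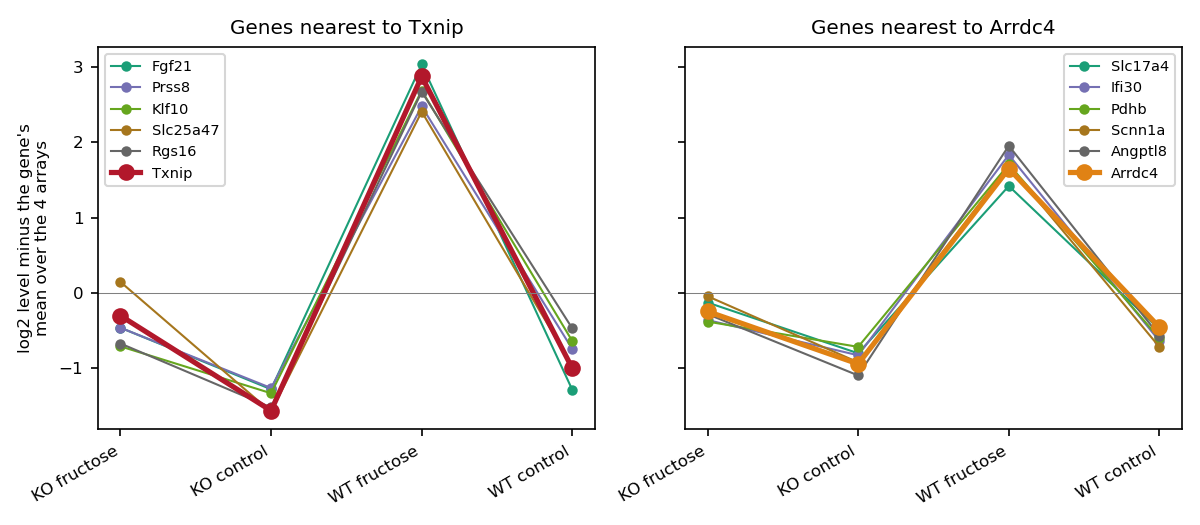
Log2 level minus the gene's mean over the 4 arrays (y axis) for Txnip and its 5 nearest genes (left) and for Arrdc4 and its 5 nearest genes (right), 1 point per array joined by lines. In both panels the WT fructose array is the highest point and the KO control array the lowest or close to it.

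A further probe set was listed for both Txnip and Gm15441, a long noncoding RNA gene that overlaps Txnip on chromosome 3 and is known in mouse liver as its antisense transcript. Its log2 levels were 3.96 in KO fructose and 4.07 in KO control, against 4.97 in WT fructose and 3.60 in WT control. Only the WT fructose array was above background. Which of the overlapping transcripts it reads cannot be told from the files, so it was left out of the Txnip values. Averaged in, it lowered the Txnip differences with fructose to 0.58 in KO, no longer at 2-fold, and to 2.62 in WT. KO minus WT changed to -2.09 in fructose and -0.045 in control medium. For the fructose difference in KO and the genotype difference in control medium, both added levels were below background.

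For the partners of the alpha-arrestins, counts at 2-fold with fructose are read against the shares of all detected genes, 1.68% higher and 1.18% lower in KO and 3.1% higher and 3.01% lower in WT. Txn1, the cytosolic thioredoxin that Txnip binds, had log2 levels of 10.45 in KO fructose and 10.51 in KO control, against 10.52 in WT fructose and 10.67 in WT control. Its levels stayed close together while Txnip ranged over 4.44 log2 units. With fructose, 0 of 21 detected thioredoxin-system genes were higher by 2-fold and 1 was lower in KO, and in WT 1 was higher and 1 lower, which at 1 gene or none in each direction is near those shares. Msrb3, a methionine sulfoxide reductase, was the lower gene in both (-1.09 in KO and -1.46 in WT), and Tmx4, a thioredoxin-related transmembrane protein of the ER, was the higher one (0.74 in KO and 1.07 in WT). The median of the list was 0.10 in KO and 0.024 in WT.

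Of 9 detected NEDD4-family ligases and adaptors, 0 reached 2-fold in any comparison, where no comparison had more than 3.1% of detected genes past 2-fold in a direction, so 0 of 9 is near the share of all genes. The widest fructose differences were those of Smurf1, a ligase (0.84 in KO and 0.69 in WT), and Ndfip2, an adaptor (0.73 in KO and 0.50 in WT). Among 11 ESCRT partners 1 was at least 2-fold higher in both genotypes, Vps37b, a subunit of ESCRT-I, with 1.38 in KO and 1.16 in WT, a count of 1 beside shares of 1.68% in KO and 3.1% in WT. Of the 6 detected arrestin-fold genes outside the family 0 reached 2-fold, also near those shares. Arrb2, beta-arrestin, differed by -0.091 in KO and -0.34 in WT, and Vps26c, a subunit of the retriever complex, by -0.62 in KO and -0.95 in WT.

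Among 19 detected cargo and binding partners, 0 were at 2-fold with fructose in KO, and in WT 2 were higher and 1 was lower, beside shares of 3.1% and 3.01% of all detected genes. Slc2a2, the hepatic glucose transporter, had log2 levels of 6.55 in KO fructose and 7.53 in KO control, against 8.70 in WT fructose and 7.66 in WT control. Its fructose difference was -0.98 in KO and 1.04 in WT, and KO minus WT in fructose medium was -2.15. Prkaa2, a catalytic subunit of AMPK, the kinase that marks Txnip protein for breakdown, differed by 0.32 in KO and 1.03 in WT. Hdac1, a histone deacetylase, was the lower gene in WT, at 7.53 in WT fructose and 8.53 in WT control, and differed by -0.64 in KO.

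Of 23 detected regulators known to act on Txnip or Arrdc4 or to share the MAX-MLX network, 1 was at least 2-fold higher with fructose in KO (1.68% of all detected genes) and 3 in WT (3.1%), and 0 were lower (1.18% and 3.01%). Ppard, a lipid-sensing nuclear receptor, differed by 1.26 in KO and 0.89 in WT. Ern1 (IRE1), an ER stress sensor reported to raise Txnip, differed by 0.62 in KO and 1.41 in WT. Atf6, also an ER stress sensor, differed by 0.52 in KO and 1.04 in WT. Mnt, a MAX-binding repressor, differed by 0.88 in KO and 1.09 in WT. Mlxipl itself was 1 of 23 at least 2-fold lower in KO in fructose medium (-1.06). The genes known to respond to ChREBP gave 0 of 22 at least 2-fold higher with fructose in KO and 12 of 23 in WT, and 1 lower in each genotype, beside the same shares, with medians of 0.010 and 1.04; Txnip differed by 1.26 in KO. In fructose medium 15 of these 23 were at least 2-fold lower in KO than in WT and 1 was higher, where 0.739% and 0.543% of all detected genes were. Txnip and Arrdc4 were not on that list.

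**Figure D5:**
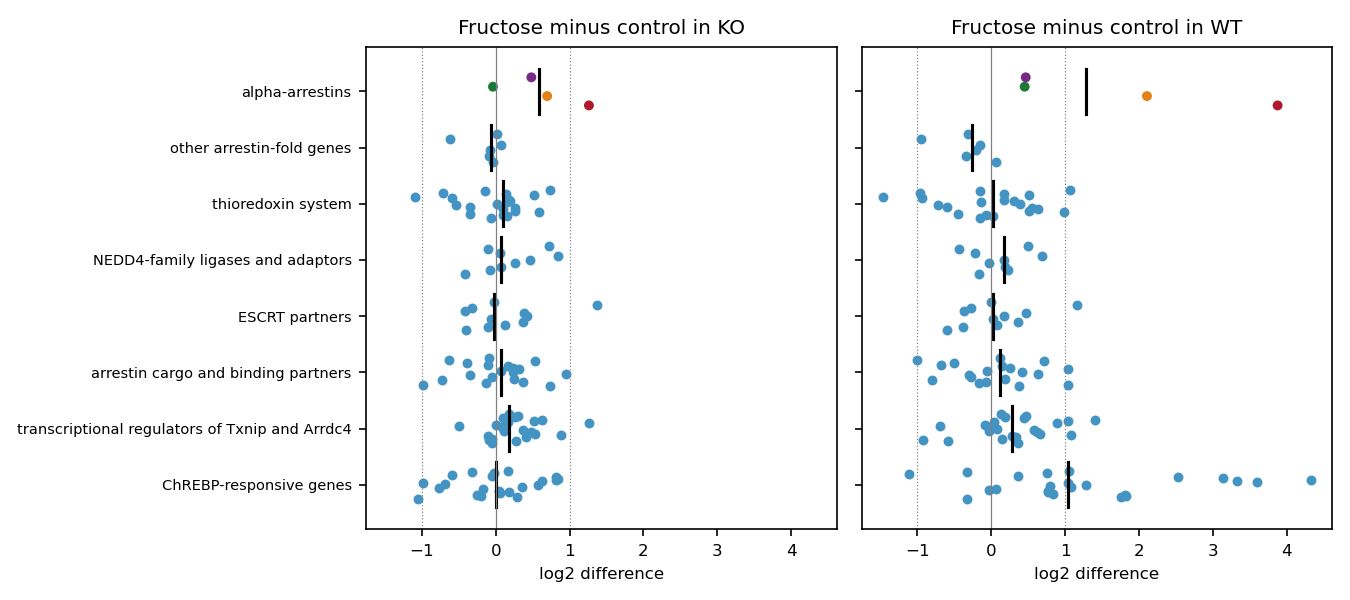
Log2 differences of fructose minus control in KO (left) and WT (right) for detected genes of each list, 1 point per gene (x axis, log2; rows are lists; black bars are medians and dotted lines mark 2-fold). Only the alpha-arrestins and the ChREBP-responsive genes hold points beyond 1.5 in WT.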

How the data were processed

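Total RNA (400 ng per sample) was labelled with biotin and hybridised to 1-colour whole-transcript arrays, per the labels' protocols. The deposited values are log2 levels per probe set made by the authors, with RMA and R 3.4.0 per the submitters' processing notes. RMA equalises the arrays, so a shift shared by all genes cannot be seen. The annotation version and genome build are not stated in the sources used here. Of 41345 probe sets, 23521 had 1 gene symbol, 1814 several and 16010 none in the platform table. Symbols were updated by Entrez number for 23328 probe sets through RefSeq (GRCm38.p6), and probe sets of a gene were averaged, giving 22180 genes. Background was the 95th percentile of the mean level of 1105 olfactory receptor genes. A gene was detected in a comparison if above it on at least 1 array compared.

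Arrays were subtracted on the log2 scale for 5 comparisons with Python 3.11.15 and pandas 2.3.3, and counted at 2-fold, after the scripts were tested on simulated data. With 1 array per group no test was made. The members and the 7 lists were chosen with earlier results of these data known. List genes were named if at 2-fold in any comparison, up to 6 per list, or else the 2 with the widest difference. Txn1, Arrdc5, Gckr, Timd4 and Cd68 were named after their values were seen.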

Additional observations from a re-analysis of the deposited data

Results flagged for a closer look

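Among the 5 members, Mlxipl and the list genes that the naming rule took, the fructose difference had opposite signs in the genotypes for 4 genes, and in each case the difference between genotypes was not tested, as each group had 1 array. Arrdc3 differed by -0.037 in KO and 0.45 in WT, Mlxipl by -0.045 in KO and 0.36 in WT, Acly, ATP citrate lyase of lipogenesis, by -0.25 in KO and 1.81 in WT, and Slc2a2 by -0.98 in KO and 1.04 in WT. The KO values of Arrdc3 and Mlxipl were close to 0. The probe set listed for both Txnip and Gm15441, which stayed out of the reported Txnip values, reached 4.97 on the WT fructose array and was below background on the other arrays.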

How the results depend on the processing

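The count of alpha-arrestins at 2-fold with fructose in KO was 1, and became 2 at 1.5-fold and 0 at 3-fold; the count for the difference of effects was 2 and became 1 at 3-fold, as the thresholds themselves bring about. The count for KO minus WT in fructose medium was 2 and became 3 at 1.5-fold, where Arrdc3 (1.57-fold lower) joined. The other counts stayed within 1.5 times, as this one did, under every setting. The settings were median centring, repeated quantile normalization, loess with span 0.3, the brightest probe set and values raised to background. The others were dim genes kept in, a background 1 log2 unit higher, 1.5-fold and 3-fold. Over the 75 values of the members under another scaling, the widest shift was 0.061 log2 units, and the sign turned for 2, both of the difference of effects of Arrdc2. Averaging in the shared probe set was an alternative chosen after seeing the data. It moved all 5 Txnip differences by more than 0.25 log2 units, to -2.05 for the difference of effects. That probe set was above background only on the WT fructose array. Of the 5 genes nearest to Txnip, 5 were kept under each scaling and 4 with values raised to background; of those nearest to Arrdc4, 4 were kept with the brightest probe set. No paired analysis was possible because each group had 1 array, and for the same reason no array could be left out.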

Other observations

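The paired E-box form of the Txnip promoter lay in the windows of 11 measured genes, of which 8 were detected. With fructose, 1 of the 8 (Txnip) was at least 2-fold higher, in KO and in WT. In WT 1 other was at least 2-fold lower. Of all detected genes, 1.68% in KO and 3.1% in WT were at least 2-fold higher, and 3.01% in WT were lower. The median difference of the 8 genes was 0.30 in KO and 0.33 in WT, with medians of -0.0041 and -0.026 for all detected genes. For KO minus WT in fructose medium it was 0.027, with 0.015 for all detected genes. There 1 of the 8, Txnip, was at least 2-fold lower, against 0.739% of all detected genes. The form was written after the Txnip sequence had been read.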
